A study of Oryza sativa with 4 samples.

Results

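Aquaporins are channel proteins of the major intrinsic protein family that let water, and in some cases small uncharged solutes, cross membranes. Those of the tonoplast, the membrane around the vacuole, are called tonoplast intrinsic proteins, or TIPs; they let the vacuole exchange water with the cytosol and so take part in turgor and cell expansion. Plasma membrane aquaporins (PIPs), NOD26-like proteins (NIPs) and small basic proteins (SIPs) form the other plant subfamilies. Described here are 6 rice aquaporin genes of 31414 genes in the deposited table, taken by their IDs: 5 whose descriptions name a tonoplast protein (Os06g0336200, Os05g0231700, Os03g0146100, Os01g0975900 and Os02g0658100) and Os12g0204100, described only as similar to a major intrinsic protein. The genes were chosen by family and ID with the FPKM of this comparison already known, the lower level of Os12g0204100 among them. The comparison between groups is therefore given for these genes as values and standard errors, with no p-value for any transcript. Counts of their transcripts that passed a threshold on p are description only, and nothing is read from them.

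The study asked which genes respond to a surplus of OsNAC14, a NAC transcription factor induced by drought. Leaves of PGD1:OsNAC14 rice, in which the constitutive PGD1 promoter drives OsNAC14, gave 2 libraries, and leaves of nontransgenic rice (NT) gave 2. By the methods of the study the PGD1:OsNAC14 plants came from a single homozygous line in the Nakdong background; the column names of the 2 libraries differ in a number, and whether it marks plants, lines or batches is not stated. No plant was exposed to drought. The labels give an age of 20 days and the cultivar Nipponbare, where the methods of the study give 2 weeks and Nakdong. The sources used here do not give how many plants entered a library, so p-values measure only the spread between libraries.

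Values are FPKM (fragments scaled for transcript length and mapped reads), which allow levels of different genes to be compared per length. Differences are PGD1:OsNAC14 minus NT on the quantile-normalized log2(FPKM + 1) scale, and a transcript was tested where 2 or more of the 4 libraries reached 1 FPKM. A transcript was called where limma gave an adjusted p under 0.05 and the fold was 2 or more. OsNAC14 itself had 16.4 and 16.3 FPKM in PGD1:OsNAC14 leaves, against 3.16 and 3.70 FPKM in NT leaves (log2 difference 1.99, SE 0.11, limma adjusted p = 0.0204). That call was lost without PGD1:OsNAC14 replicate 1 and in the fits that lacked an NT library. No call of the whole table held in the fits that lacked an NT library, so that loss is not particular to OsNAC14. With 1 library left out the log2 difference of OsNAC14 lay between 1.93 and 2.05.

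The 4 libraries were alike in summed FPKM, between 735320 and 765960, and had 29446 to 29947 transcripts at 1 FPKM or more. Read numbers are not known, so no counting error is given. The PGD1:OsNAC14 replicates stood further apart than the NT replicates: the middle 90% of all tested transcripts differed by −0.57 to 0.78 on the log2 scale between PGD1:OsNAC14 replicates 1 and 2, and by −0.39 to 0.35 between NT replicates 1 and 2. Leaf mesophyll markers (Rubisco small subunits and chlorophyll-binding proteins, 21 transcripts) summed to 9493 and 12143 FPKM in PGD1:OsNAC14 leaves, against 9557 and 9179 FPKM in NT leaves. A list of 5 transcripts known from roots was also present, at 291 and 565 FPKM in PGD1:OsNAC14 leaves and 608 and 606 FPKM in NT leaves. Of the 5, 4 were tested. The lists for dividing cells, pollen and anther, and seed held 17, 54 and 13 transcripts. None of the tested markers of any list was called, where 0.555% of all tested transcripts were. In leaf RNA as a whole, fewer cells of a type and less RNA per cell cannot be told apart.

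The 6 genes lie on 6 chromosomes of the IRGSP-1.0 assembly. Os06g0336200, described as a delta-tonoplast intrinsic protein, is at 13407318 to 13408715 on chromosome 6. Proteins of the delta class conduct ammonia as well as water in Arabidopsis. Os05g0231700, similar to a tonoplast intrinsic protein, is at 8000717 to 8002989 on chromosome 5, and Os03g0146100, a tonoplast water channel, is at 2562811 to 2564646 on chromosome 3. Os01g0975900, similar to the maize tonoplast protein ZmTIP1-2, is at 43115746 to 43117221 on chromosome 1. Os02g0658100, similar to tonoplast intrinsic protein2, is at 26608374 to 26609365 on chromosome 2. Os12g0204100 is at 5436085 to 5439545 on chromosome 12, and the sources used here do not give its subfamily.

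In leaf RNA the genes ranked in the same order in both groups. With the FPKM of its transcripts summed, Os06g0336200 was the most abundant, at 250 and 323 FPKM in PGD1:OsNAC14 leaves and 437 and 455 FPKM in NT leaves. It averaged 286 ± 51.4 FPKM in PGD1:OsNAC14 and 446 ± 13.0 FPKM in NT (SD, n = 2 each). Os05g0231700 followed with 235 ± 59.3 FPKM in PGD1:OsNAC14 and 310 ± 8.79 FPKM in NT.
Next in the order was Os03g0146100, the tonoplast water channel, with 161 ± 45.3 FPKM in PGD1:OsNAC14 and 174 ± 17.4 FPKM in NT. Os01g0975900 had 90.6 ± 12.2 FPKM in PGD1:OsNAC14 and 67.9 ± 4.96 FPKM in NT, and Os02g0658100 had 41.4 ± 18.1 FPKM in PGD1:OsNAC14 and 59.1 ± 0.990 FPKM in NT. The neighbours Os06g0336200 and Os05g0231700, and also Os05g0231700 and Os03g0146100, had overlapping ranges in PGD1:OsNAC14 leaves. In NT leaves no neighbours in the order overlapped. Within each library the genes kept this order, so the overlaps reflect the gap between the PGD1:OsNAC14 replicates. Os12g0204100 was far below the tonoplast genes in each library, with 0.146 ± 0.110 FPKM in PGD1:OsNAC14 and 2.80 ± 0.325 FPKM in NT.

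**Figure D1:**
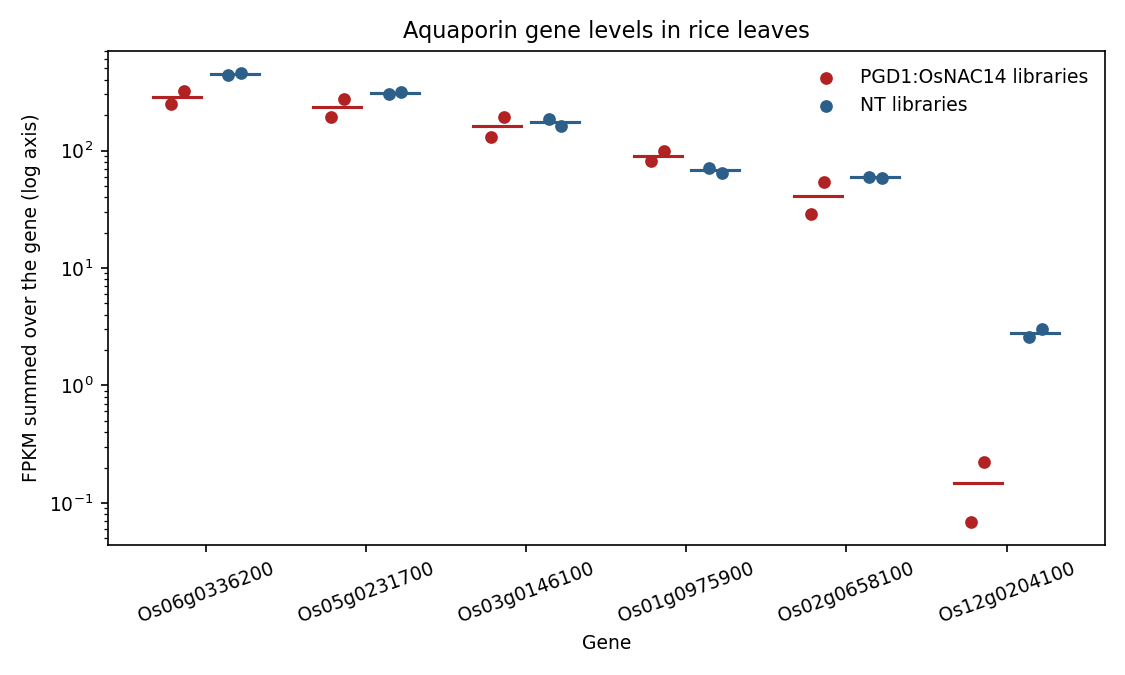
FPKM summed over the transcripts of each gene (log axis) in 2 PGD1:OsNAC14 and 2 NT libraries; points are libraries and short lines group means. Os06g0336200 is highest in both groups (means 286 and 446 FPKM), and Os12g0204100 is lowest (0.146 and 2.80 FPKM).

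Together the 5 tonoplast genes had 682.9 and 946.4 FPKM in PGD1:OsNAC14 leaves, against 1058 and 1056 FPKM in NT leaves. Both PGD1:OsNAC14 libraries were below both NT libraries, at 64.6% and 89.6% of the NT mean. Their share of the FPKM of all 37 aquaporin genes in the table was 30.7% and 32.2% in PGD1:OsNAC14 and 31.5% and 32.9% in NT. These ranges overlap. The sum of all 37 genes includes the noncoding transcript Os07t0448800-02, at nearly 0 FPKM in PGD1:OsNAC14 and 373 and 256 FPKM in NT. This transcript lowers the NT shares but not those in PGD1:OsNAC14, so the overlap cannot be read as an unchanged share. Within the tonoplast sum, the delta gene Os06g0336200 gave 36.6% and 34.1% in PGD1:OsNAC14, against 41.3% and 43.1% in NT. Os01g0975900, the ZmTIP1-2-like gene, gave 12.0% and 10.5% in PGD1:OsNAC14, against 6.75% and 6.10% in NT. These shares did not overlap between the groups. Nor did that of Os03g0146100, at 18.9% and 20.4% in PGD1:OsNAC14 and 17.6% and 15.3% in NT, although its level overlapped. The share of Os05g0231700 did overlap, at 28.3% and 29.3% in PGD1:OsNAC14 and 28.7% and 30.0% in NT. That of Os02g0658100 overlapped too, at 4.18% and 5.72% in PGD1:OsNAC14 and 5.65% and 5.53% in NT. The shares are parts of the same sum, so a lower share of Os06g0336200 by itself raises the others.

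The 6 genes have 10 transcripts in the table, of which 9 passed the filter on FPKM. Of these 9, 1 was called (Os12t0204100-01, lower in PGD1:OsNAC14) and 8 were not, where 0.555% of all 30251 tested transcripts were called, 0.251% higher and 0.304% lower. Os12t0204100-01 passed the filter only through the NT libraries. The call of Os12t0204100-01 was lost without PGD1:OsNAC14 replicate 1. It was also lost in the fits that lacked an NT library, where no call of the whole table held. The count of called transcripts among the 9 was 0 with a pseudocount of 0.1 or 0.5, with no filter on FPKM and with the replicate number as a block. It was 0 as well with a minimum of 5 FPKM, which leaves out Os12t0204100-01. Both PGD1:OsNAC14 libraries were below both NT libraries for 5 of the 9 transcripts, as for 20.6% of all tested transcripts, and above both for 2 of the 9, as for 20.4% of all. The median log2 difference of the 9 was −0.35, beside 0.0032 over all tested transcripts. With an unadjusted p under 0.05 and the same fold, 1 of the 9 passed, beside 1.55% of all. The log2 difference was below 0 for 6 of the 9, as for 49.3% of all. Since the genes were chosen with this comparison in view, nothing is read from these counts.

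Os06g0336200 was lower in PGD1:OsNAC14 in both of its transcripts. Os06t0336200-01 had 217 and 291 FPKM in PGD1:OsNAC14 leaves, against 375 and 401 FPKM in NT leaves (log2 difference −0.58, SE 0.14). Os06t0336200-02 had 33.3 and 31.6 FPKM in PGD1:OsNAC14 leaves, against 61.6 and 54.3 FPKM in NT leaves (log2 difference −0.78, SE 0.10). The groups did not overlap in either transcript. The difference of Os06t0336200-02 lay between −0.87 and −0.69 with any one library left out. That of Os06t0336200-01 was −0.40 without PGD1:OsNAC14 replicate 1 and −0.75 without PGD1:OsNAC14 replicate 2.

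The single transcript of Os05g0231700 had 193 and 277 FPKM in PGD1:OsNAC14 leaves, against 304 and 316 FPKM in NT leaves (log2 difference −0.35, SE 0.16). Both PGD1:OsNAC14 libraries were below both NT libraries, but unequally: without PGD1:OsNAC14 replicate 1 the difference was −0.13, and without PGD1:OsNAC14 replicate 2 it was −0.56. Os02g0658100 showed the widest gap between replicates. It had 28.5 and 54.2 FPKM in PGD1:OsNAC14 leaves, against 59.8 and 58.4 FPKM in NT leaves (log2 difference −0.54, SE 0.34). Its difference was −0.07 without PGD1:OsNAC14 replicate 1 and −1.01 without PGD1:OsNAC14 replicate 2, so that its size rests on the low first replicate.

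For Os03g0146100, the tonoplast water channel, the groups overlapped. Its main transcript Os03t0146100-01 had 113 and 174 FPKM in PGD1:OsNAC14 leaves, against 171 and 153 FPKM in NT leaves (log2 difference −0.14, SE 0.24). The sign turned with the replicate left out: the difference was 0.17 without PGD1:OsNAC14 replicate 1 and −0.45 without PGD1:OsNAC14 replicate 2. The shorter Os03t0146100-03 had 16.3 and 19.0 FPKM in PGD1:OsNAC14 leaves, against 14.9 and 8.44 FPKM in NT leaves (log2 difference 0.63, SE 0.30), which became 0.24 with NT replicate 2 left out and 1.02 with NT replicate 1 left out. It made up 12.6% and 9.85% of the FPKM of the gene in PGD1:OsNAC14 and 8.04% and 5.23% in NT, without overlap. The remaining transcript, Os03t0146100-05, had at most 8.34e-20 FPKM in any library and was not tested.

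Os01g0975900 was the only one of the 5 tonoplast genes whose summed level was higher in both PGD1:OsNAC14 libraries than in both NT libraries. Os01t0975900-01 had 62.8 and 77.6 FPKM in PGD1:OsNAC14 leaves, against 50.9 and 49.7 FPKM in NT leaves (log2 difference 0.49, SE 0.13). With a library left out the difference lay between 0.33 and 0.65. Its second transcript, Os01t0975900-02, overlapped between the groups, with 19.3 and 21.7 FPKM in PGD1:OsNAC14 leaves and 20.4 and 14.6 FPKM in NT leaves (log2 difference 0.25, SE 0.20), a difference of 0.017 without NT replicate 2 and 0.48 without NT replicate 1. The ratio of Os01g0975900 to Os03g0146100 was 0.635 and 0.513 in PGD1:OsNAC14, against 0.384 and 0.399 in NT. The other ratio taken, of Os02g0658100 to Os06g0336200, overlapped, at 0.114 and 0.168 in PGD1:OsNAC14 and 0.137 and 0.128 in NT.

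Os12g0204100 had the largest difference of the 6 genes. It had 0.0686 and 0.224 FPKM in PGD1:OsNAC14 leaves, against 2.57 and 3.03 FPKM in NT leaves (log2 difference −1.72, SE 0.13). Both PGD1:OsNAC14 libraries were low and both NT libraries were above 1 FPKM. With any one library left out the difference lay between −1.82 and −1.62. At so low a level its size depends on the pseudocount: it was −2.36 with 0.5 added to the FPKM and −3.63 with 0.1 added, in place of 1. Those fits also left out the quantile normalization, and without it but with 1 added the difference was −1.73. With 0.5 or 0.1 added the transcript was no longer called.

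**Figure D2:**
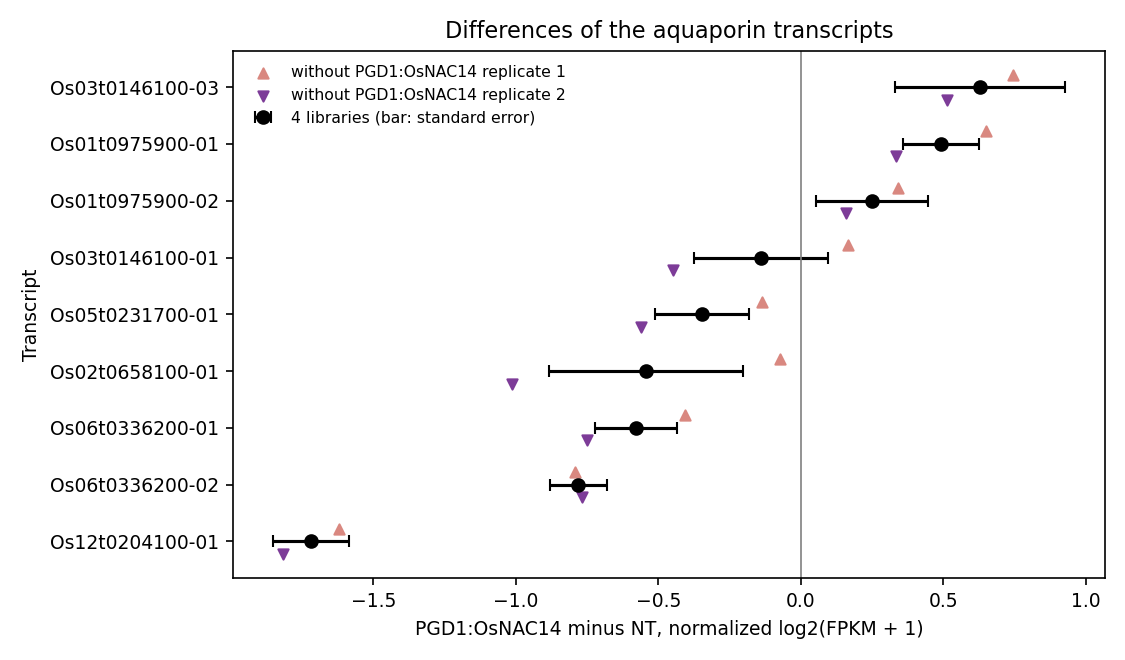
Differences between PGD1:OsNAC14 and NT on the normalized log2(FPKM + 1) scale for the 9 tested transcripts; black points with bars are the difference and its standard error over 4 libraries, and triangles are differences without 1 PGD1:OsNAC14 replicate. Os12t0204100-01 (−1.72) and both transcripts of Os06g0336200 (−0.58 and −0.78) stay below 0, while Os03t0146100-01 changes sign.

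A difference between the PGD1:OsNAC14 replicates was shared by most of these transcripts. Replicate 1 was below replicate 2 in PGD1:OsNAC14 for 8 of the 9, as for 61.7% of all tested transcripts, and by at least 0.3 on the log2 scale for 5 of the 9, as for 16% of all and 12.3% of those with a mean of at least 20 FPKM. Between the NT replicates, replicate 1 was below replicate 2 for 3 of the 9, as for 46.3% of all, and by at least 0.3 for 0 of the 9, beside 8.08% of all. In the other aquaporin genes PGD1:OsNAC14 replicate 1 was below replicate 2 for 25 of 29 tested transcripts, by at least 0.3 for 14 of them.

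**Figure D3:**
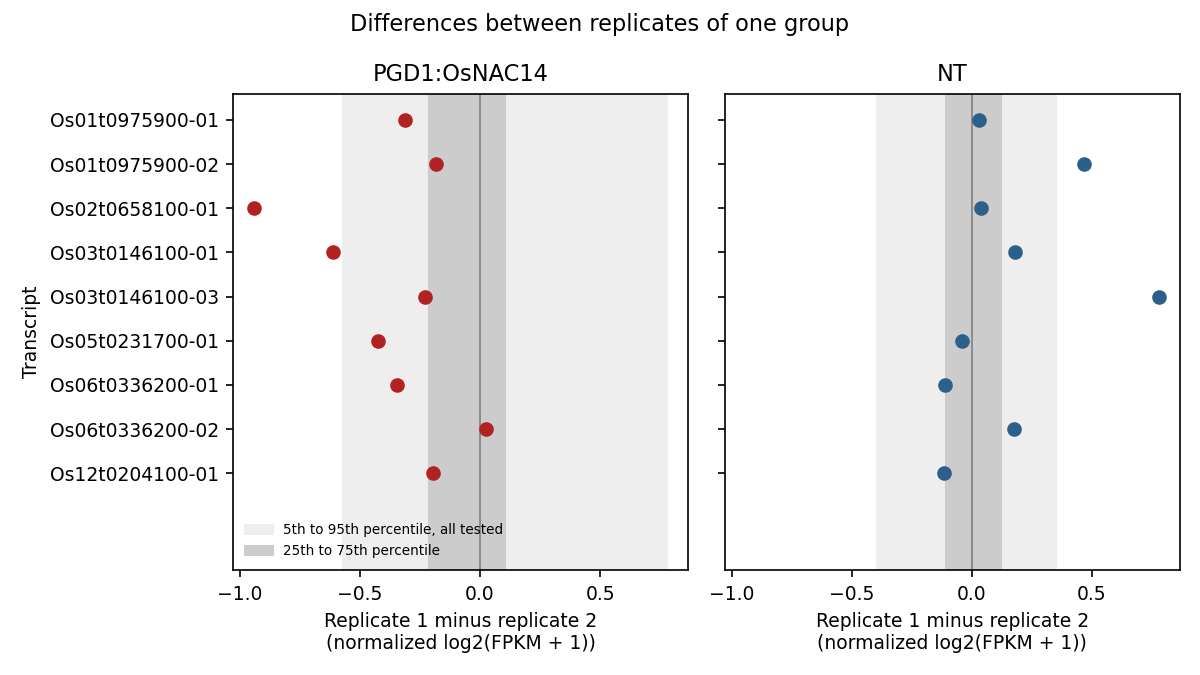
Replicate 1 minus replicate 2 on the normalized log2(FPKM + 1) scale, in PGD1:OsNAC14 (left) and NT (right), for the 9 tested transcripts; shaded bands hold the middle 50% and 90% of all tested transcripts. In PGD1:OsNAC14, 8 of the 9 points are left of 0, and in NT 3 of the 9 are.

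The root list was also lowest in PGD1:OsNAC14 replicate 1. The lists for dividing cells and for pollen and anther were lowest there too, but in proportion they stood much closer to their NT values. The list for dividing cells had 1321 and 1548 FPKM in PGD1:OsNAC14 leaves, against 1390 and 1420 FPKM in NT leaves. For pollen and anther the sums were 3366 and 4169 FPKM, against 3605 and 3884 FPKM. The seed list was not lowest there, with 252 and 243 FPKM in PGD1:OsNAC14 leaves, against 246 and 292 FPKM in NT leaves. RCc3 (Os02g0662000), a protein known from rice roots, had 182 and 369 FPKM in PGD1:OsNAC14 leaves, against 392 and 390 FPKM in NT leaves. Os02g0745100, the NIP that takes up silicon in rice roots and also one of the other aquaporins, had 86.3 and 146 FPKM in PGD1:OsNAC14 leaves, against 166 and 166 FPKM in NT leaves. The summed root list stood at 47.9% and 93.1% of the NT mean in the PGD1:OsNAC14 libraries. Beside it, Os02g0658100 stood at 48.3% and 91.8% of its NT mean, Os05g0231700 at 62.3% and 89.4%, Os06g0336200 at 56.0% and 72.3% and Os03g0146100 at 74.5% and 111%. Os01g0975900 stood at 121% and 146%, and the mesophyll list at 101% and 130%, so that both were above the NT mean in each PGD1:OsNAC14 library. What part root transcripts or the lower first replicate have in the values of the tonoplast genes was not tested.

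**Figure D4:**
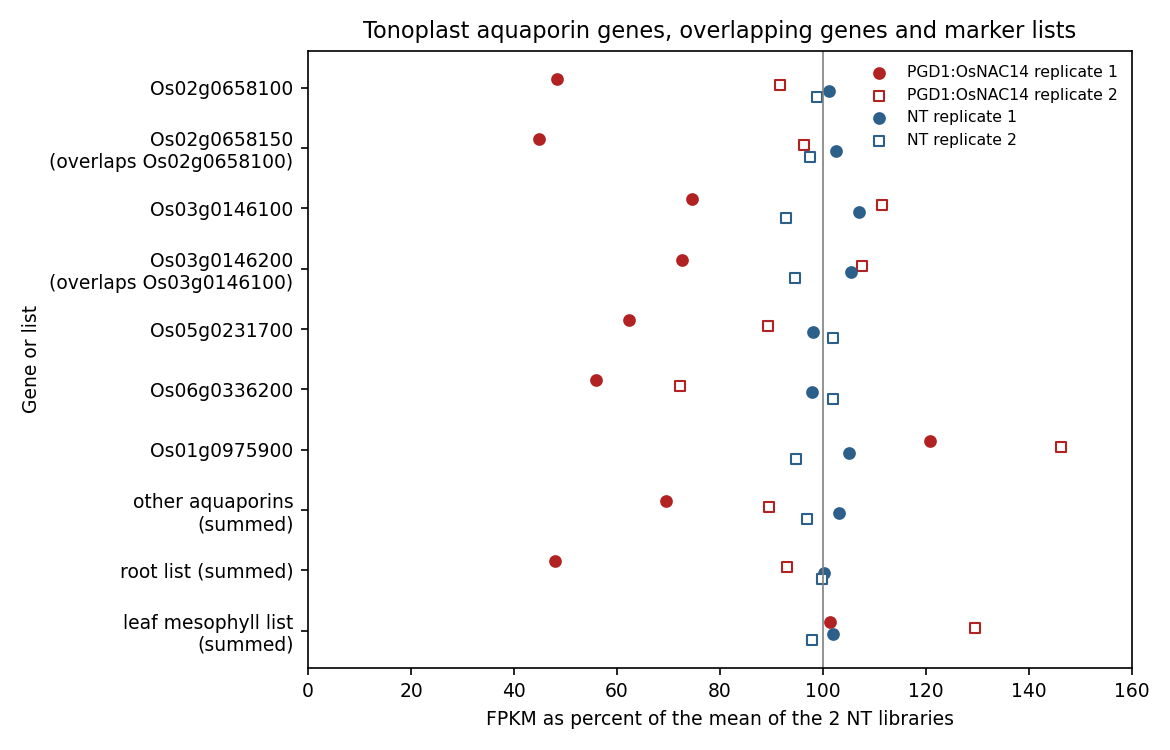
FPKM of each tonoplast gene, of 2 overlapping genes and of summed lists in each library, as a percent of the mean of the 2 NT libraries (vertical line at 100). The other aquaporin sum includes the noncoding Os07t0448800-02, at nearly 0 FPKM in PGD1:OsNAC14 and 373 and 256 FPKM in NT, which raises its NT mean. Filled red points (PGD1:OsNAC14 replicate 1) are lowest in every line but those of Os01g0975900 and the mesophyll list; the root list is at 47.9% there and Os02g0658100 at 48.3%.

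Some of the tonoplast genes (3 of 5) share bases with another annotated gene, and the sources used here do not say whether strand was used in counting, so reads of such pairs may not have been told apart. Os03g0146200, a conserved hypothetical gene, shares 1329 bases with Os03g0146100 and had 234 and 346 FPKM in PGD1:OsNAC14 leaves, against 339 and 304 FPKM in NT leaves. Os02g0658150, a hypothetical gene, shares 335 bases with Os02g0658100 and had 30.5 and 65.6 FPKM in PGD1:OsNAC14 leaves, against 69.7 and 66.4 FPKM in NT leaves. In both pairs the libraries were high and low in the same way. Os05g0231600, which is itself similar to a tonoplast aquaglyceroporin, shares 702 bases with Os05g0231700 but had under 1 FPKM in each library (0.519 and 0.695 in PGD1:OsNAC14, 0.936 and 0.812 in NT).

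The rest of the family comprised 31 genes with 38 transcripts, of which 29 transcripts of 23 genes were tested. None was called higher in PGD1:OsNAC14, 2 were called lower and 27 were not called (limma, adjusted over all 30251 transcripts). Over all tested transcripts 0.251% were called higher and 0.304% lower. An unadjusted limma p under 0.05 was found for 8 of the 29, beside 2843 of all 30251. The median log2 difference of the 29 was −0.12. One of the called transcripts was Os07t0448800-02, which the table lists as not coding for protein, from an aquaporin gene on chromosome 7. It was at nearly 0 FPKM in both PGD1:OsNAC14 libraries, against 373 and 256 FPKM in NT leaves, and passed the filter only through the NT libraries (log2 difference −8.21, adjusted p = 0.00505). The pseudocount sets that difference, which was −9.28 with 0.5 and −11.6 with 0.1 added, so it is no measured fold. The coding transcript Os07t0448800-01 had 217 and 306 FPKM in PGD1:OsNAC14 leaves and 286 and 285 FPKM in NT leaves. The summed gene, compared without quantile normalization, was not called (log2 difference −1.21, limma adjusted p = 0.209). The call of Os07t0448800-02 was also lost without NT replicate 1 (adjusted p = 0.0726) and without NT replicate 2 (0.162).

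Os07t0448200-00 was the other, with 0.0758 and 0.124 FPKM in PGD1:OsNAC14 leaves, against 1.70 and 1.83 FPKM in NT leaves (log2 difference −1.31, SE 0.11, adjusted p = 0.0468). It too passed the filter only through the NT libraries. Its call was lost without PGD1:OsNAC14 replicate 1. The call was also lost in the fits that lacked an NT library, as was every other call. With 1 library left out its difference lay between −1.34 and −1.28. Its difference was −1.92 with a pseudocount of 0.5 and −3.23 with 0.1, and with 0.1 the call was lost (adjusted p = 0.0596). Among transcripts that were not called, the largest positive differences were those of Os01t0232000-00 (1.57, adjusted p = 0.640), the PIP-like Os07t0448100-01 (1.17, adjusted p = 0.409) and the silicon-channel NIP transcript Os06t0228200-01 (0.52, adjusted p = 0.444). That of Os01t0232000-00 depended on the NT libraries, at 7.45 and 1.13 FPKM beside 8.98 and 14.2 FPKM in PGD1:OsNAC14: with NT replicate 2 left out it was 0.56, and with NT replicate 1 left out 2.59. Without PGD1:OsNAC14 replicate 2 the difference of Os07t0448100-01 was 0.74 and that of Os06t0228200-01 was 0.33. Os06t0228200-01 had 46.2 and 58.6 FPKM in PGD1:OsNAC14 leaves, against 36.6 and 36.3 FPKM in NT leaves.

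Other genes described as tonoplast proteins were present at low levels. Os04t0550900-00, aquaporin TIP2-3, had 0.112 and 4.55 FPKM in PGD1:OsNAC14 leaves, against 4.20 and 4.30 FPKM in NT leaves (log2 difference −1.06, adjusted p = 0.758). Only PGD1:OsNAC14 replicate 1 was low: the difference was 0.10 without it, and −2.22 (adjusted p = 0.0307) without PGD1:OsNAC14 replicate 2. Os01t0232100-01, similar to ZmTIP4-3, had 2.39 and 3.15 FPKM in PGD1:OsNAC14 leaves and 3.51 and 4.11 FPKM in NT leaves (adjusted p = 0.631). Os10t0492600-01, similar to ZmTIP3-1, had at most 0.265 FPKM in any library and was not tested. ZmTIP3-type proteins are known from seeds.

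**Figure D5:**
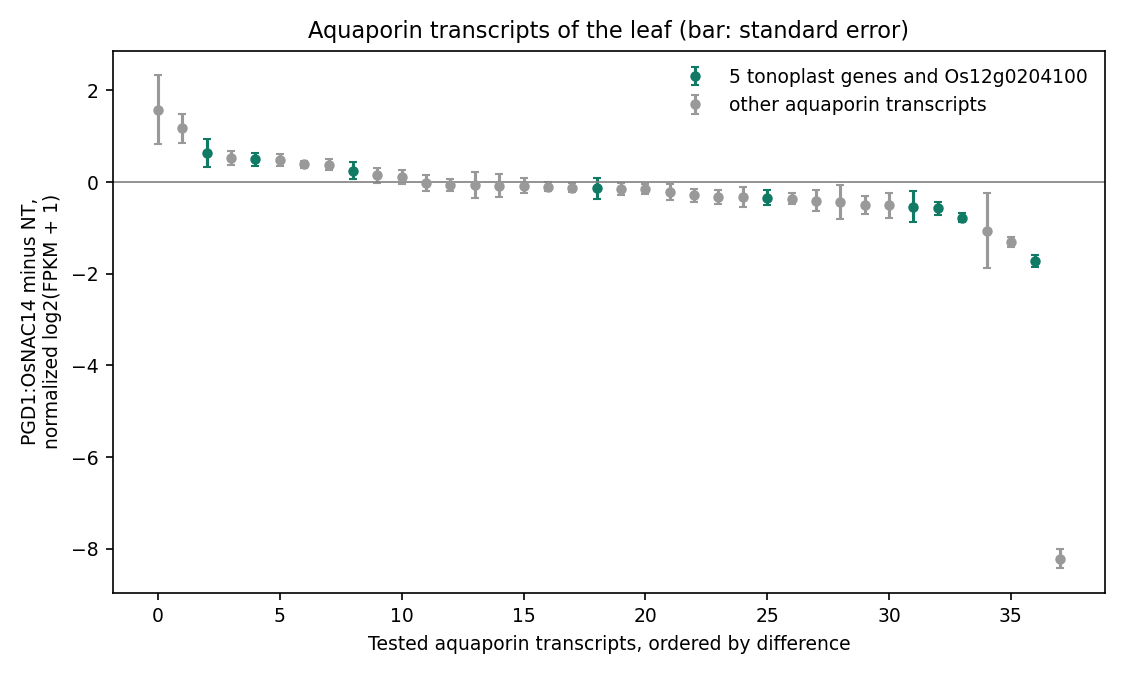
Difference between PGD1:OsNAC14 and NT (normalized log2(FPKM + 1), bars are standard errors) for all tested aquaporin transcripts, ordered by size; green marks the 5 tonoplast genes and Os12g0204100, and grey the other genes. Most points are within 1 unit of 0, and Os07t0448800-02 lies at −8.21.

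Vacuolar proton pumps energize transport across the same membrane. A list of 26 genes was matched on descriptions of these pumps and also took in genes that are not pump subunits, such as Os01g0140700, similar to a transcription factor, and Os04g0612900, an assembly protein. Of its transcripts, 39 of 42 were tested and 0 were called by limma, beside 0.555% of all 30251 tested transcripts. An unadjusted limma p under 0.05 was found for 4 of the 39, beside 2843 of all 30251. With so small a share called over all, 0 calls in this list does not show that its genes were unchanged. The median log2 difference of the list was −0.06. The largest differences were those of the proton-pyrophosphatase transcript Os06t0644200-03 (−2.05, adjusted p = 0.692) and the proteolipid subunit transcript Os11t0169900-02 (1.16, adjusted p = 0.493). For Os06t0644200-03 the PGD1:OsNAC14 libraries had 12.5 and 15.7 FPKM, against 19.1 and 206 FPKM in NT, and without the high NT replicate 2 its difference was −0.40. For Os11t0169900-02 it was 0.64 without NT replicate 2. Of 31 other genes whose descriptions name the tonoplast or vacuole, 41 of 53 transcripts were tested and 0 were called, with 3 at an unadjusted p under 0.05. The same limit holds for this count of 0. Here the hexose transporter transcript Os10t0539900-04 (−0.90, adjusted p = 0.672) and the tonoplast monosaccharide transporter Os02t0229400-01 (−0.79, adjusted p = 0.760) differed most. Both were high in NT replicate 2 alone, and without it the differences were −0.26 for Os10t0539900-04 and 0.060 for Os02t0229400-01.

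Around the 6 genes, the 5 nearest tested genes on either side held no call. Of these 60 neighbours, 0 were called by limma and 5 had an unadjusted p under 0.05, where 162 of 25760 tested genes (0.629%) were called. The 60 include Os03g0146200 and Os02g0658150, which lie wholly inside Os03g0146100 and Os02g0658100. Reads of these pairs may not have been told apart. Beside Os12g0204100, Os12t0203200-01 had a log2 difference of −0.68 (adjusted p = 0.202) and Os12t0203000-01, similar to a cyclin-dependent kinase, one of −0.54 (adjusted p = 0.293); both were picked out after their values were seen. The transcripts whose pattern over the 4 libraries was most like that of Os12t0204100-01 were found by the root mean square difference of their centred log2 values. They were the helicase-domain transcript Os07t0492100-01 (0.0379), the hypothetical Os04t0323500-01 (0.0418) and the transposase-domain Os12t0417000-01 (0.0463), and 17 transcripts were within 0.1. Closest to Os06t0336200-01, the most abundant transcript of the 6 genes, were the bindin-like Os01t0814100-01 (0.0158), Os12t0428000-01 (0.0196), similar to the senescence-associated protein DIN1, and the nodulin-like Os02t0331400-00 (0.0267). With 335 transcripts within 0.1, its pattern was a common one.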

How the data were processed

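Leaf RNA of 2 PGD1:OsNAC14 and 2 NT samples was analyzed. The authors trimmed single-end reads with Trimmomatic (0.32) and mapped them with TopHat to IRGSP-1.0 with RAP-DB gene models. The sources used here do not name the tool behind the FPKM. The authors deposited FPKM for 37972 transcripts, and log2(FPKM + 1) values that they had quantile-normalized over all libraries of their table. Of these columns, 4 hold per-sample values of libraries outside the series and were not used. Columns of the authors' own comparison (fold change and p-values) and tables of their selected transcripts and pathways were not used either. The meaning of a number resembling a year in the names of the NT columns is not given; if it marks a batch, it cannot be told apart from the group.

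The normalized log2 values were compared with limma 3.58.1 (R 4.3.3; eBayes with a trend, two-sided), with Benjamini-Hochberg adjustment over the 30251 transcripts that reached 1 FPKM in 2 or more of 4 libraries. An exact permutation test of 2 against 2 libraries cannot give a p below 0.333 and was not used. Summaries were made with Python 3.11.15 and pandas 2.3.3. No model of counts was fitted, and depth is unknown. The limma fit was also run on simulated data, drawn with the same spread in both groups. The PGD1:OsNAC14 replicates stood further apart than the NT replicates, so nothing is read from that run. The 6 genes, the lists and the alternatives were chosen with earlier results of these data known. Other aquaporins, proton pumps and vacuole genes were matched on deposited descriptions or IDs; named are all called transcripts, the 3 aquaporins with the largest rise and the 3 with the largest fall, the 2 largest differences of the other lists, and the 3 nearest patterns. Alternatives left out the quantile normalization, the filter on FPKM, the fold threshold, the variance trend, the adjustment of p or each library in turn. Others used pseudocounts of 0.1 and 0.5, a minimum of 5 FPKM, gene sums of FPKM, or a block for the replicate number. The fits with those pseudocounts or with gene sums also left out the quantile normalization.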

Additional observations from a re-analysis of the deposited data

How the results depend on the processing

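The number of called transcripts was 168 over the whole table, 1 among the 6 genes and 2 among the other aquaporins. With no filter on FPKM these counts were 109, 0 and 2; with an FPKM of at least 5, which leaves out Os12t0204100-01, they were 112, 0 and 1; with an unadjusted p and the fold, 469, 1 and 3. A pseudocount of 0.1 gave 0 and 1 in the gene lists, a pseudocount of 0.5 gave 0 among the 6 genes, and FPKM summed per gene gave 1 among the other aquaporins. With the replicate number as a block all 3 counts were 0 by limma, with 2422, 4 and 7 at an unadjusted p under 0.05; the differences between replicates of the groups correlated at r = 0.004 over 30251 transcripts, so the numbers are taken as names only. Leaving out each library gave 0 to 772 calls over the whole table, 0 to 2 among the 6 genes and 0 to 3 among the other aquaporins, where the lone library of a group is assumed to vary like the other group. All 3 counts were 0 in the fits that lacked either NT library, with 1972 transcripts at an unadjusted p under 0.05 where NT replicate 1 was left out and 1300 where NT replicate 2 was. Direction turned for Os04t0550900-00 (−2.22 to 0.10 with a library left out, highest without PGD1:OsNAC14 replicate 1), Os02t0229400-01 (−1.64 to 0.060 with a library left out, highest without NT replicate 2), Os11t0169900-02 (−0.19 with FPKM summed per gene), Os03t0146100-03 (−0.13 with FPKM summed per gene, where the gene is mostly Os03t0146100-01) and Os03t0146100-01 (0.17 without PGD1:OsNAC14 replicate 1). The cause was not tested. The other 7 tested transcripts of the 6 genes kept their sign under each alternative in which they were tested. With 2 libraries a group and unknown depth, the share of counting error in the low values, such as those of Os12t0204100-01, cannot be given.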
